A study of Mus musculus with 12 samples.

Results

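In mouse kidney collecting duct cells edited at Actr3, 37 genes were low in every edited group of the study. They were chosen by level alone: a named gene was included if it averaged at least 50 normalised counts over the 3 control libraries and at most 25% of that average in each of the 3 edited groups. Of 27179 genes in the table, 11459 were named and averaged at least 50 in the control, and 37 of these met the rule. Another 5 genes met the thresholds but were left out by name: Actr3, Cftr, Gja1, Krt5 and Krt20. Because the levels in the edited and control libraries chose the genes, those levels are described below without a test.

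The cells were mIMCD3, an immortal mouse line of collecting duct epithelium from the inner medulla of the kidney. They were confluent after 48 h with 10% fetal calf serum and were then kept without serum for 24 h. There were 3 poly(A) RNA libraries in each of 4 groups. The dKO line was labelled as knocked out for Actr3 and Ift88, the KO-1 CB libraries came from Actr3 KO-1 cells with 0.5 µM ciliobrevin D, which inhibits the motor protein dynein, and the KO-1 line was labelled as knocked out for Actr3. The control was a wild-type line. The libraries without ciliobrevin D had the solvent control in the protocol, and no control line was treated with ciliobrevin D. By the sample titles each genotype was represented by a single line, though 1 control column may be another control line. The edited gene and any other difference between lines therefore cannot be told apart. The labels do not say from which cells dKO was made.

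Recovered reads ranged from 30391369 to 32588460 in dKO, from 28902562 to 32544817 in KO-1 CB, from 31425219 to 34977447 in KO-1 and from 37001577 to 38077987 in the control. One control column carries a line and replicate number that match no sample title and may be another control line. It is called the unnumbered control library and is given last among the control values. For the 37 genes it lay between 0.833 and 1.26 times the mean of the other control libraries, with a median ratio of 0.981. Actr3 itself averaged 871 ± 38.6 normalised counts in dKO, 1573 ± 180.2 in KO-1 CB and 1218 ± 111 in KO-1, against 8336 ± 293 in control (SD, n = 3 each). Ift88 RNA averaged 604 ± 29.8 in dKO, 438 ± 4.29 in KO-1 CB and 617 ± 34.2 in KO-1, against 457 ± 14.9 in control, so its RNA level does not check the second knockout. Of 17 markers of collecting duct and kidney epithelium, 9 (among them Pax8, Cdh16, Epcam and Krt8) averaged at least 1036 normalised counts in all 4 groups, 6 (Aqp2, Aqp3, Aqp4, Avpr2, Elf5 and Tfap2b) averaged under 20 in all, and Scnn1a and Gata3 lay between. Epcam averaged 12803 in dKO, 11561 in KO-1 CB and 11486 in KO-1, against 20587 in control. Krt8 averaged 14637 in dKO, 13693 in KO-1 CB and 9727 in KO-1, against 25272 in control. Over 22 markers of fibroblasts, endothelium, leukocytes, other tubule segments, podocytes and smooth muscle, the summed level was 5721 to 6943 in dKO, 12431 to 13005 in KO-1 CB and 15055 to 17796 in KO-1, against 11063 to 13212 in control, and 15 or 16 of the markers averaged under 10 in each group. Most of the sum was Lrp2, the endocytic receptor megalin, with 5905 in dKO, 11969 in KO-1 CB and 15235 in KO-1, against 11264 in control, while the fibroblast gene Col3a1 had 0 throughout. The part of these markers in the results below was not tested.

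Actr3 encodes ARP3, a subunit of the Arp2/3 complex, which starts branched actin filaments. Ift88 encodes a protein of intraflagellar transport, by which cilia are built. Collecting duct cells take up sodium through the epithelial sodium channel, move urea through urea transporters and are sealed by claudins, and several of the 37 genes belong to that work. Others are developmental transcription factors or imprinted genes, which are expressed mainly from the copy inherited from one parent. Genes of both kinds are known to be held off in many tissues by DNA methylation or Polycomb complexes.

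Control levels of the 37 genes ran from 50.5 to 2438 normalised counts with a median of 157. As a median, the genes stood at 2.16% of the control level in dKO, 5.30% in KO-1 CB and 7.85% in KO-1. The lowest edited group was dKO for 24 genes, KO-1 CB for 7 and KO-1 for 6. Counting each gene by its highest edited group, 8 genes stayed at or under 2% of control, 11 at or under 5%, 17 at or under 10% and 22 at or under 15%. The libraries of the edited groups and of the control did not overlap for any of the 37 genes, which the rule largely fixes. The share of all genes without such overlap was not computed. A different measure is the limma call against control, in either direction, at an adjusted p under 0.05. It took in 67.1%, 65.1% and 69.8% of the 13939 genes tested in dKO, KO-1 CB and KO-1. In bulk RNA, fewer cells expressing a gene and less RNA per cell cannot be told apart. Of the 37 genes, 36 are protein coding and H19 is a long non-coding RNA.

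**Figure D1:**
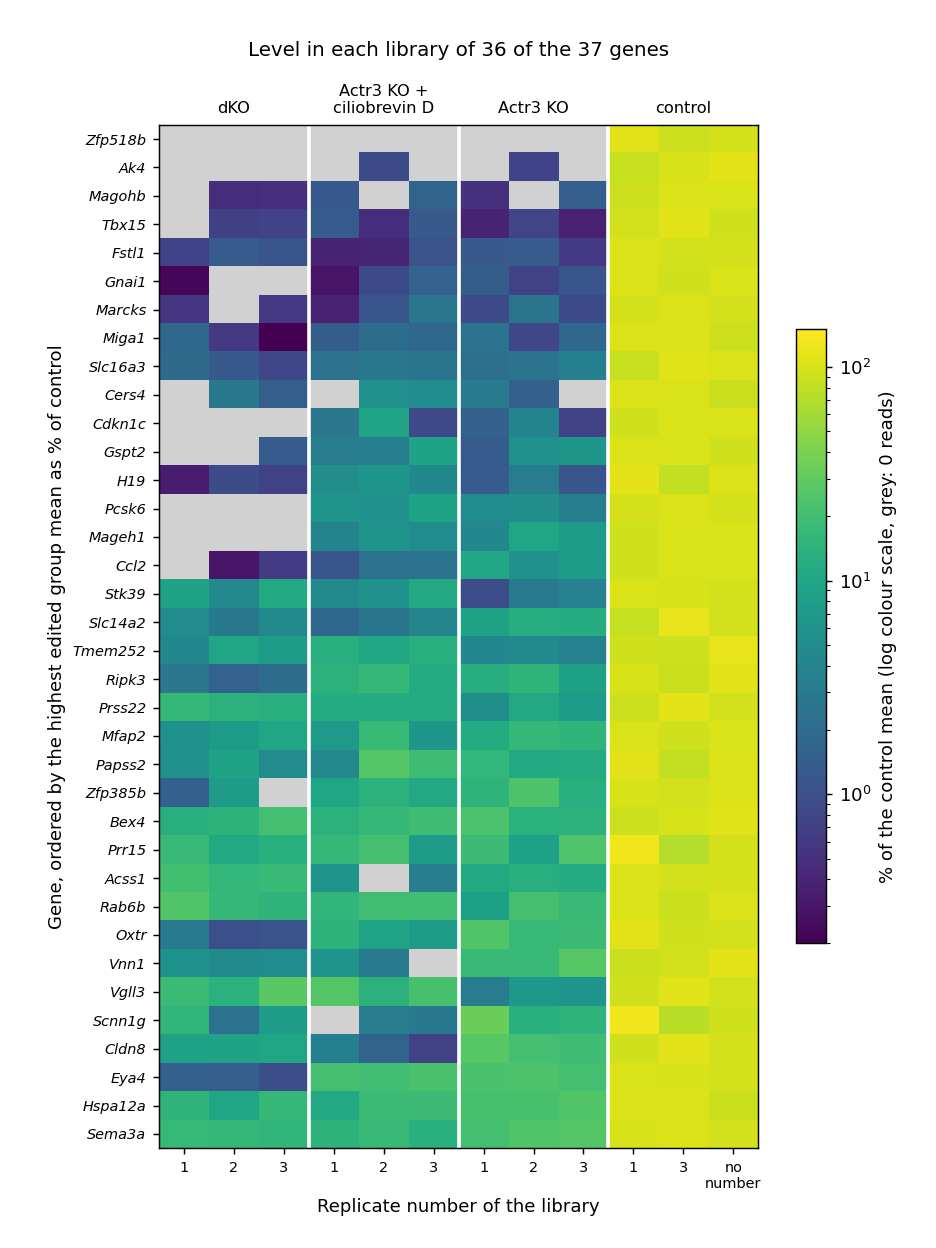
Each cell is the level of a gene (rows, 36 of the 37, deepest loss at the top) in a library (columns: dKO, KO-1 CB, KO-1 and control) as a percent of the mean of the 3 control libraries, on a log colour scale, with grey for 0 reads. Zfp518b is grey in all 9 edited libraries, dKO holds 5 genes with no read in any library, and the rows are ordered by the highest edited group, so a bottom row such as Eya4 holds both 22.4% of control (KO-1) and 1.33% (dKO).

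The deepest loss was that of Zfp518b, which encodes a zinc finger protein. It had 0 in all 3 dKO libraries, 0 in all 3 KO-1 CB libraries and 0 in all 3 KO-1 libraries, against 119, 95.6 and 103 in control normalised counts. No read fell on it in any of the 9 edited libraries, and against a floor of 3 reads over a group it was at least 112-fold lower in dKO, 89.5-fold lower in KO-1 CB and 106-fold lower in KO-1 than in control. These floors and the counting intervals below cover counting error only. Ak4, a mitochondrial adenylate kinase, had 0 in all 3 dKO libraries, 0, 1.23 and 0 in KO-1 CB and 0, 1.04 and 0 in KO-1, against 117, 135 and 157 in control normalised counts. A single read of Ak4 was found in KO-1 CB and a single one in KO-1, and the dKO level was at least 144-fold lower than control.

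Transcription factors and cofactors made up 5 of the genes. Tbx15, a T-box factor of mesenchymal and muscle development, had 0, 1.85 and 1.96 in dKO, 3.61, 1.23 and 3.33 in KO-1 CB and 0.993, 2.07 and 0.957 in KO-1, against 247, 295 and 243 in control normalised counts. The edited libraries held at most 3.61, whereas no control library was below 243. Zfp385b, another zinc finger gene, averaged 1.85 ± 2.45 in dKO, 7.11 ± 1.37 in KO-1 CB and 10.4 ± 3.64 in KO-1, against 60.8 ± 3.15 in control (SD, n = 3 each). Eya4, a transcriptional coactivator and phosphatase of organ development, had 12.1, 12.02 and 7.85 in dKO, 172, 159 and 179.9 in KO-1 CB and 182, 189.5 and 168 in KO-1, against 819, 797 and 794 in control. Its KO-1 CB and KO-1 libraries lay close together, at 21.2% and 22.4% of control, while all 3 dKO libraries were far below them at a mean of 1.33% of control. Vgll3, a cofactor of TEAD factors, had 11.2, 8.32 and 16.7 in dKO, 15.6, 8.64 and 13.3 in KO-1 CB and 1.99, 4.14 and 3.83 in KO-1, against 56.4, 67.7 and 58.7 in control, and here KO-1 was the lowest group.

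Both imprinted genes on the list, H19 and Cdkn1c, lie in one imprinted region of chromosome 7. H19, a non-coding RNA of fetal tissues that is transcribed from the maternal copy, had 2.79, 7.40 and 5.89 in dKO, 43.3, 53.1 and 35.5 in KO-1 CB and 10.9, 26.9 and 9.57 in KO-1, against 921, 657 and 857 in control normalised counts. The 3 edited groups did not overlap, with dKO lowest and KO-1 CB highest: dKO stood at 0.66%, KO-1 CB at 5.42% and KO-1 at 1.95% of control. Cdkn1c, which encodes the cyclin-dependent kinase inhibitor p57, had 0 in all 3 dKO libraries, 3.61, 12.3 and 1.11 in KO-1 CB and 1.99, 5.18 and 0.957 in KO-1, against 121, 134 and 134 in control. It had no read in dKO, 14 reads over the 3 KO-1 CB libraries and 8 over the 3 KO-1 libraries, against 438 in control. A gene annotated on the opposite strand, Gm44732, overlaps 625 bases of Cdkn1c exons, and the sources used here do not give whether strand was used in counting. Igf2, the growth factor gene beside H19, was too low to be tested and averaged 0.327 ± 0.567 in dKO, 0.771 ± 0.67 in KO-1 CB and 0.345 ± 0.598 in KO-1, against 8.52 ± 3.39 in control.

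Renal transport and barrier genes numbered 4. Slc14a2, the urea transporter of the collecting duct, had 9.29, 5.55 and 8.83 in dKO, 3.61, 4.94 and 7.77 in KO-1 CB and 17.9, 23.8 and 22.98 in KO-1, against 161, 227 and 182 in control normalised counts. Scnn1g, the gamma subunit of the epithelial sodium channel, had 12.1, 1.85 and 5.89 in dKO, 0, 2.47 and 2.22 in KO-1 CB and 25.8, 10.4 and 11.5 in KO-1, against 101, 58.7 and 71.2 in control. Cldn8, a tight junction claudin of the distal nephron and collecting duct, had 80.9, 83.2 and 90.3 in dKO, 31.3, 14.8 and 6.66 in KO-1 CB and 243, 188 and 173 in KO-1, against 834, 1008 and 879.7 in control. For all 3 of these genes KO-1 CB had the lowest mean and KO-1 the highest of the edited groups, and the KO-1 CB and KO-1 libraries did not overlap. The alpha subunit of the same channel, Scnn1a, did not share the loss, with means of 47.2 in dKO, 53.4 in KO-1 CB and 70.7 in KO-1, against 64.1 in control. Stk39, the SPAK kinase that acts on sodium chloride cotransporters, had 9.29, 4.62 and 11.8 in dKO, 4.81, 6.17 and 11.1 in KO-1 CB and 0.993, 3.11 and 3.83 in KO-1, against 107, 102 and 98.7 in control. Here the order was turned, with KO-1 lowest at 2.58% of control.

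Signalling and trafficking accounted for 5 genes. Gnai1, an inhibitory G protein alpha subunit, had 0.929, 0 and 0 in dKO, 1.20, 3.70 and 6.66 in KO-1 CB and 5.96, 3.11 and 4.79 in KO-1, against 439, 387 and 433 in control normalised counts. A single read over the 3 dKO libraries left Gnai1 1355-fold lower, with a counting interval of 239 to 52701, whereas the related Gnai2 averaged 17309 ± 973 in dKO, 13695 ± 974 in KO-1 CB and 12704 ± 469.7 in KO-1, against 17990.4 ± 804 in control. Gnai3 averaged 6869 ± 415 in dKO, 7865 ± 573 in KO-1 CB and 5706 ± 286 in KO-1, against 9732 ± 463 in control. Marcks, a protein kinase C substrate that binds membrane and actin, had 1.86, 0 and 1.96 in dKO, 1.20, 3.70 and 8.89 in KO-1 CB and 2.98, 8.28 and 2.87 in KO-1, against 323, 345 and 318 in control. Its closest relative Marcksl1, named after its values were seen, averaged 5374 ± 238 in dKO, 5582 ± 329 in KO-1 CB and 4384 ± 298 in KO-1, against 8103 ± 231 in control. Oxtr, the oxytocin receptor, had 2.79, 0.925 and 0.981 in dKO, 13.2, 8.64 and 6.66 in KO-1 CB and 22.8, 15.5 and 17.2 in KO-1, against 101, 84.8 and 87.2 in control, with dKO lowest and KO-1 highest among the edited groups. Ripk3, the kinase of necroptosis, averaged 5.04 ± 1.41 in dKO, 32.8 ± 5.26 in KO-1 CB and 28.04 ± 7.58 in KO-1, against 233 ± 28.04 in control. Rab6b, a Golgi-associated small GTPase, was nearly level across the edited groups at 26.04 ± 7.34, 25.5 ± 3.36 and 21.96 ± 9.22 in dKO, KO-1 CB and KO-1, against 139.6 ± 13.05 in control.

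Secreted proteins and proteases were the commonest kind together with metabolic genes, with 7 members each. Fstl1, a secreted follistatin-like glycoprotein, had 4.65, 8.32 and 6.87 in dKO, 2.41, 2.47 and 6.66 in KO-1 CB and 7.94, 8.28 and 3.83 in KO-1, against 662, 587 and 609 in control normalised counts. It stood at 1.07%, 0.621% and 1.08% of control in dKO, KO-1 CB and KO-1, with no order among the edited groups that the libraries could separate. Pcsk6, a proprotein convertase that cleaves precursors of secreted growth factors, had 0 in all 3 dKO libraries, 12.03, 11.1 and 17.8 in KO-1 CB and 9.93, 10.4 and 6.70 in KO-1, against 191, 208 and 193 in control. Ccl2, a chemokine that attracts monocytes, had 0, 0.925 and 1.96 in dKO, 3.61, 7.41 and 7.77 in KO-1 CB and 31.8, 17.6 and 23.9 in KO-1, against 292, 324 and 318 in control. Both were nearly or wholly without reads in dKO, and the dKO libraries of Ccl2 lay below those of KO-1 CB and these below those of KO-1, without overlap. Prss22, a serine protease of epithelia, had 155, 135 and 121 in dKO, 116, 115 and 112 in KO-1 CB and 50.6, 104 and 73.7 in KO-1, against 861, 1080.1 and 905 in control. KO-1 was its lowest edited group. Sema3a, a secreted semaphorin that guides axons and ureteric branches, held the most normalised counts of the list in the control, with no correction for length. It had 415, 403 and 384 in dKO, 354, 432 and 327 in KO-1 CB and 505, 599.6 and 646 in KO-1, against 2432, 2558 and 2323 in control. Mfap2, a glycoprotein of elastic microfibrils, held the fewest, with 3.80 ± 1.06 in dKO, 5.19 ± 2.99 in KO-1 CB and 7.30 ± 1.20 in KO-1, against 50.5 ± 3.09 in control.

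Among the metabolic and mitochondrial genes, Slc16a3 encodes MCT4, which exports lactate. It had 21.4, 13.9 and 8.83 in dKO, 26.5, 30.9 and 27.8 in KO-1 CB and 24.8, 26.9 and 37.3 in KO-1, against 930.4, 1159 and 1146 in control normalised counts. Miga1, or mitoguardin, takes part in mitochondrial fusion and had 13.9, 4.62 and 0.981 in dKO, 10.8, 16.05 and 14.4 in KO-1 CB and 18.9, 6.21 and 14.4 in KO-1, against 799, 809 and 683 in control. Its paralogue Miga2 averaged 1685 ± 89.03 in dKO, 1621 ± 84.8 in KO-1 CB and 2094 ± 51.4 in KO-1, against 1469 ± 21.5 in control, so the related gene was not low in any edited group. Cers4, a ceramide synthase, had 0, 1.85 and 0.981 in dKO, 0, 3.70 and 3.33 in KO-1 CB and 1.99, 1.04 and 0 in KO-1, against 70.2, 68.6 and 58.7 in control. Genes with opposite-strand annotation overlap 886 and 214 bases of Cers4 exons. Acss1, a mitochondrial acetyl-CoA synthetase, had 19.5, 15.7 and 16.7 in dKO, 6.02, 0 and 3.33 in KO-1 CB and 10.9, 12.4 and 11.5 in KO-1, against 102, 92.9 and 96.1 in control, with KO-1 CB lowest. Vnn1, a pantetheinase, had 4.65, 3.70 and 3.93 in dKO, 4.81, 2.47 and 0 in KO-1 CB and 13.9, 13.5 and 21.1 in KO-1, against 70.2, 75.8 and 89.8 in control, and its KO-1 libraries lay above those of both other edited groups. Papss2, which makes the sulfate donor for sulfation, averaged 5.32 ± 1.83 in dKO, 13.4 ± 8.89 in KO-1 CB and 10.6 ± 2.00 in KO-1, against 80.8 ± 12.2 in control.

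Magohb and Gspt2 act on RNA and in translation, and each has a closely similar copy elsewhere in the genome. Magohb, a copy of the exon junction complex protein MAGOH, had 0, 0.925 and 0.981 in dKO, 2.41, 0 and 3.33 in KO-1 CB and 0.993, 0 and 2.87 in KO-1, against 175, 208 and 201 in control normalised counts. Magoh, named after its values were seen, averaged 1434 ± 31.3 in dKO, 1356 ± 68.9 in KO-1 CB and 881 ± 38.7 in KO-1, against 1741 ± 123 in control. Gspt2, a release factor that ends translation, had 0, 0 and 0.981 in dKO, 2.41, 2.47 and 6.66 in KO-1 CB and 0.993, 4.14 and 4.79 in KO-1, against 76.3, 74.9 and 66.7 in control. Gspt1 averaged 5683 ± 101 in dKO, 8475 ± 427 in KO-1 CB and 6678 ± 181 in KO-1, against 9204 ± 228 in control. The sources used here do not give how reads shared by such copies were assigned, so the levels of Magohb and Gspt2 are uncertain. Both other copies averaged at least 881 normalised counts in every group.

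A mixed group of 5 genes completed the list. Mageh1, an X-linked gene of the MAGE family, had 0 in all 3 dKO libraries, 6.02, 9.88 and 7.77 in KO-1 CB and 6.95, 15.5 and 11.5 in KO-1, against 145, 164 and 163 in control normalised counts. It had no read in dKO, where it was at least 166-fold lower than control. Tmem252, a transmembrane protein gene, had 13.9, 31.4 and 23.6 in dKO, 40.9, 32.1 and 39.98 in KO-1 CB and 13.9, 14.5 and 11.5 in KO-1, against 291, 287 and 366 in control. Bex4, another X-linked gene, averaged 20.6 ± 5.20 in dKO, 21.2 ± 3.20 in KO-1 CB and 21.9 ± 6.87 in KO-1, against 128 ± 12.2 in control. A gene of the same family, Bex3, named after its values were seen, averaged 5216 ± 269 in dKO, 2974 ± 85.3 in KO-1 CB and 3518 ± 219.9 in KO-1, against 6765 ± 152 in control. Prr15, a proline-rich protein gene, was the most variable in the control, with 10.2, 6.47 and 7.85 in dKO, 9.63, 12.3 and 4.44 in KO-1 CB and 10.9, 5.18 and 14.4 in KO-1, against 76.3, 41.5 and 57.8 in control. Hspa12a, a distant member of the HSP70 chaperone family, had 23.2, 15.7 and 25.5 in dKO, 16.8, 28.4 and 28.9 in KO-1 CB and 33.8, 34.2 and 38.3 in KO-1, against 165, 164 and 137 in control.

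Genes sharing a name root with the 12 deepest losses were counted to see how far relatives were low as well. Of 26 such genes tested, 0 were at or under 25% of control in all 3 edited groups. Only 37 of all 11459 named genes with a control mean of at least 50 met the rule, so 0 of 26 is near the share of all genes. Of the 26, 12, 11 and 12 were called lower than control and 9, 7 and 6 higher in dKO, KO-1 CB and KO-1. Backgrounds among all genes tested were 35.1%, 32%, 35.4% lower and 32%, 33%, 34.4% higher (limma, adjusted p under 0.05). Name roots are not proof of relation: Cdkn2aip shares one with Cdkn1c.

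The threshold of 25% divided a continuous range of levels. Just inside it were Cldn8 at 22.2%, Eya4 at 22.4%, Hspa12a at 22.8% and Sema3a at 23.9% of control in their highest edited group. Just outside stood Cldn2 at 25.9%, Cecr2 at 26.1%, Ly6g2 at 26.4% and Zfp521 at 27.2%. Cldn2, a claudin that lets cations pass, had 77.1, 92.5 and 99.1 in dKO, 243, 168 and 118 in KO-1 CB and 281, 301 and 321 in KO-1, against 1160.2, 1141 and 1189 in control normalised counts. Cecr2, a chromatin remodelling protein, had 11.2, 9.25 and 14.7 in dKO, 28.9, 29.6 and 35.5 in KO-1 CB and 10.9, 8.28 and 5.74 in KO-1, against 121, 120.0 and 119 in control. Ly6g2 had 42.8, 50.9 and 35.3 in dKO, 33.7, 28.4 and 33.3 in KO-1 CB and 28.8, 43.5 and 37.3 in KO-1, against 173, 164 and 152 in control. Zfp521, a zinc finger protein, had 1.86, 0.925 and 0.981 in dKO, 8.42, 8.64 and 12.2 in KO-1 CB and 13.9, 8.28 and 19.1 in KO-1, against 56.4, 46.02 and 49.8 in control. In each of the 4 the highest edited group was only slightly above the limit, and Zfp521 was far below it in dKO.

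The rule did not set the edited groups against each other, but it held every gene at or under 25% of control in each. Differences among these groups were tested within that limit, which the other genes tested did not have. The dKO and KO-1 CB libraries were each compared with the same KO-1 libraries, so the comparisons are not independent and no overlap of their calls is given. By the labels dKO and KO-1 differ in the Ift88 edit, and this edit and other differences between the lines cannot be told apart. Of the 37 genes, 25 were called between dKO and KO-1 (67.6%), beside 65.7% of all 13939 genes tested. The split by direction was 20 lower and 5 higher, or 54.1% and 13.5% of the genes, beside 33.2% and 32.5% of all genes. At least 2-fold differences were called for 20 of the 37 genes, beside 9.51% of all genes. Most of the other genes had higher levels, and the share with such differences at a like level was not computed. The median log2 fold change was -0.90 over the 37 genes and -0.01 over all genes tested. The share of all genes called depended on the level, and the members were low. Of those that averaged under 10 normalised counts over dKO and KO-1, 10 of 19 were called, beside 28.6% of all genes at that level. From 10 to 100, 12 of 15 were called, beside 44.8%, and from 100 to 1000, 3 of 3 were, beside 65.6%. Called lower at these levels in turn were 8, 10 and 2 of the members, beside 23.1%, 30.6% and 30.3% of all genes. Below 100, most calls among all genes were thus also in the lower direction. Only 23 of the 37 reached 10 in at least 3 edited libraries, and 18 of these were called (14 lower, 4 higher). The other 14 passed the filter on low values through the control, and the 7 of them called in dKO over KO-1 were Mageh1, Zfp385b, Gnai1, Cdkn1c, Gspt2, Marcks and Stk39. When the filter was set on edited libraries alone, 16 of the genes were called (12 lower, 4 higher).

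Eya4 had the lowest log2 fold change in dKO over KO-1. It averaged 10.7 ± 2.43 normalised counts in dKO and 179.6 ± 11.1 in KO-1 (log2 fold change -3.98 ± 0.14 (SE), limma adjusted p = 1.12e-15). Ccl2 averaged 0.962 ± 0.982 in dKO and 24.4 ± 7.10 in KO-1 (log2 fold change -3.79 ± 0.36 (SE), limma adjusted p = 7.97e-09). Oxtr averaged 1.56 ± 1.06 in dKO and 18.5 ± 3.82 in KO-1 (log2 fold change -2.99 ± 0.34 (SE), limma adjusted p = 9.26e-08). In all 3 genes, every dKO library was below every KO-1 library, and the calls held in every setting in which the gene was tested (26 for Eya4 and Ccl2, 25 for Oxtr). Mageh1 had 0 reads in dKO and 34 in KO-1, and was at least 11.98-fold lower (limma adjusted p = 9.49e-09); it reached 10 in only 2 edited libraries. Pcsk6 had 0 reads in dKO and 27 in KO-1, and was at least 9.52-fold lower (limma adjusted p = 6.22e-09). Cdkn1c, with 0 reads in dKO and 8 in KO-1, was at least 2.86-fold lower by the same floor.

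The other genes called lower in dKO were Zfp385b, Ripk3, Gnai1, Vnn1, Gspt2, Slc14a2, Marcks, H19, Scnn1g, Miga1, Cldn8, Slc16a3, Hspa12a and Sema3a, with log2 fold changes from -2.31 for Zfp385b to -0.54 for Sema3a. The deepest losses of the list, Zfp518b, Ak4, Magohb, Tbx15 and Fstl1, were not called. With at most 3.61 normalised counts of Zfp518b, Ak4, Magohb and Tbx15 in any edited library, a further fall was not detectable at this depth. Single libraries decided several of these calls. The adjusted p was 0.0676 for Cdkn1c without KO-1 replicate 2, 0.0592 for Hspa12a without dKO replicate 2, and 0.146 and 0.132 for Marcks without dKO replicate 2 and without KO-1 replicate 2. For Scnn1g it was 0.237, 0.0541 and 0.182 without dKO replicate 2, dKO replicate 3 or KO-1 replicate 1. For Miga1 it was 0.251, 0.122 and 0.0739 without dKO replicate 3, KO-1 replicate 1 or KO-1 replicate 3, and edgeR and DESeq2 did not call Miga1 either (adjusted p = 0.0941 and 0.126).

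Higher in dKO than in KO-1 were 5 genes, which the rule held at or under 25% of control in both groups. Vgll3 averaged 12.1 ± 4.25 normalised counts in dKO and 3.32 ± 1.17 in KO-1 (log2 fold change 1.59 ± 0.33 (SE), limma adjusted p = 0.000278). Stk39 averaged 8.56 ± 3.63 in dKO and 2.64 ± 1.47 in KO-1 (log2 fold change 1.41 ± 0.40 (SE), limma adjusted p = 0.00364), and likewise reached 10 in only 2 edited libraries. Prss22 averaged 137 ± 17.3 in dKO and 75.97 ± 26.5 in KO-1 (log2 fold change 0.89 ± 0.17 (SE), limma adjusted p = 0.000106). In these 3 genes the dKO libraries all lay above the KO-1 libraries. Tmem252 (log2 fold change 0.68 ± 0.23 (SE), limma adjusted p = 0.0143) was not called without dKO replicate 2 or without KO-1 replicate 3 (adjusted p = 0.122 and 0.0548).

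Ciliobrevin D was compared within the KO-1 line. Between KO-1 CB and KO-1, 15 of the 37 genes were called (40.5%), beside 65.5% of all genes tested. Lower in KO-1 CB were 9 genes and higher were 6, or 24.3% and 16.2%, beside 32.9% and 32.7% of all genes. At least 2-fold differences were called for 10 of the 37 genes, beside 9.34% of all genes, whose share at a like level was not computed. The median log2 fold change was -0.02 over the 37 genes and -0.02 over all genes. Of the genes, 19 averaged under 10 normalised counts over these groups, a level at which 28.9% of all genes were called, and 5 of the 19 were called. From 10 to 100, 8 of 15 were called, beside 41.4%, and from 100 to 1000, 2 of 3 were, beside 66.4%. Of the 23 genes that reached 10 in at least 3 edited libraries, 14 were called (9 lower, 5 higher), and of the 14 that passed through the control only Stk39 was. With the filter on edited libraries alone, 12 were called (7 lower, 5 higher).

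Cldn8 fell furthest with ciliobrevin D, to 17.6 ± 12.5 normalised counts in KO-1 CB against 202 ± 36.8 in KO-1 (log2 fold change -3.67 ± 0.29 (SE), limma adjusted p = 6.77e-10). Scnn1g averaged 1.56 ± 1.36 in KO-1 CB and 15.9 ± 8.62 in KO-1 (log2 fold change -2.80 ± 0.52 (SE), limma adjusted p = 7.95e-05). Slc14a2 averaged 5.44 ± 2.13 in KO-1 CB and 21.6 ± 3.22 in KO-1 (log2 fold change -1.85 ± 0.28 (SE), limma adjusted p = 7.43e-06). These claudin, sodium channel and urea transporter genes were thus lower in every treated library than in any untreated KO-1 library. Vnn1 averaged 2.43 ± 2.41 in KO-1 CB and 16.1 ± 4.27 in KO-1 (log2 fold change -2.63 ± 0.46 (SE), limma adjusted p = 3.59e-05). Acss1 averaged 3.12 ± 3.01 in KO-1 CB and 11.6 ± 0.759 in KO-1 (log2 fold change -2.01 ± 0.45 (SE), limma adjusted p = 0.000574). Those calls held in every setting in which the gene was tested (26 for Cldn8 and Slc14a2, 25 for Scnn1g, Vnn1 and Acss1). Ccl2 and Sema3a were lower as well, with log2 fold changes of -1.83 and -0.66. Oxtr was lower too, but had an adjusted p of 0.0877 without KO-1 CB replicate 3 and 0.0871 without KO-1 replicate 1. Hspa12a lost its call when any of 6 libraries was left out (KO-1 CB replicate 1, KO-1 replicates 1 to 3 or control replicates 1 and 3), with an adjusted p of 0.053 to 0.246.

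The genes higher with ciliobrevin D included a cofactor of transcription and an imprinted RNA. Vgll3 averaged 12.5 ± 3.57 normalised counts in KO-1 CB and 3.32 ± 1.17 in KO-1 (log2 fold change 1.65 ± 0.33 (SE), limma adjusted p = 0.000189). H19 averaged 43.98 ± 8.79 in KO-1 CB and 15.8 ± 9.65 in KO-1 (log2 fold change 1.55 ± 0.31 (SE), limma adjusted p = 0.000197). Its own value in dKO over KO-1, which shares the KO-1 libraries, was a log2 fold change of -1.34 ± 0.31 (SE). Tmem252 averaged 37.7 ± 4.84 in KO-1 CB and 13.3 ± 1.59 in KO-1 (log2 fold change 1.43 ± 0.23 (SE), limma adjusted p = 1.62e-05). Prss22 (log2 fold change 0.64 ± 0.17 (SE), limma adjusted p = 0.00263) was also higher. Stk39 (log2 fold change 1.22 ± 0.40 (SE), limma adjusted p = 0.01) was not called without KO-1 CB replicate 3 or without KO-1 replicate 1 (adjusted p = 0.0628 and 0.07). Every KO-1 CB library of the 6 genes called higher was above every KO-1 library.

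**Figure D2:**
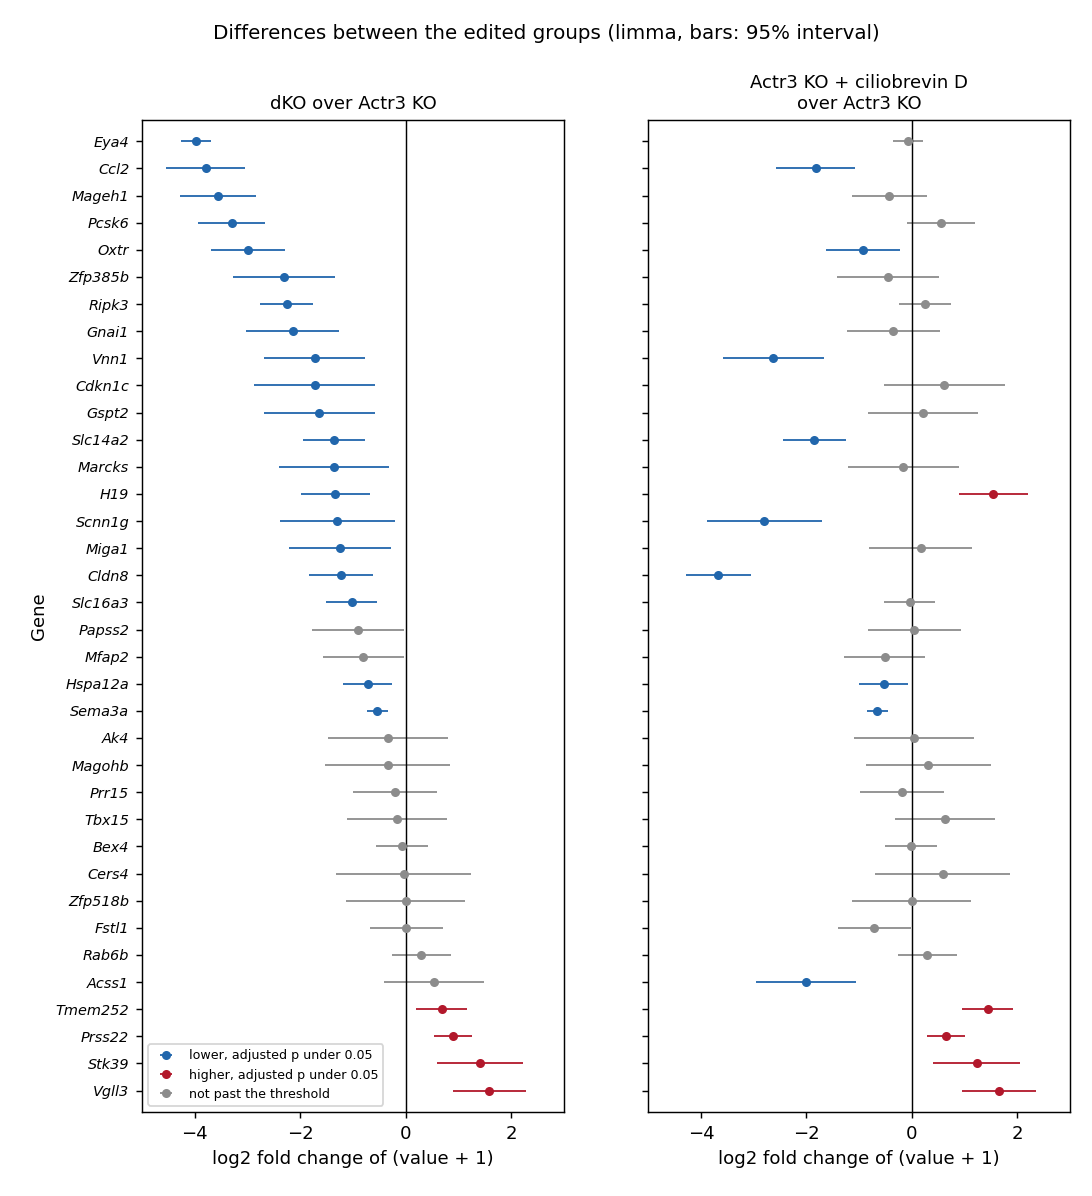
Points are limma log2 fold changes of (normalised count + 1) for 36 of the 37 genes in dKO over KO-1 (left) and KO-1 CB over KO-1 (right), with 95% intervals, and colour marks an adjusted p under 0.05. On the left 20 of the genes drawn lie lower and 4 higher, with Eya4 at -3.98, and on the right 9 lie lower and 5 higher, with Cldn8 at -3.67.

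The 37 genes were spread over 16 chromosomes. Chromosome 7 held 4 of them (Pcsk6, Scnn1g, H19 and Cdkn1c), which is 10.8% of the list against 7.39% of all named genes with a control mean of at least 50. The X chromosome held 3 (Gspt2, Bex4 and Mageh1), or 8.11% against 2.82%, and chromosomes 16 and 19 held 3 each, against 3.27% and 3.74% of all such genes. None lay on chromosomes 1, 12, 13 or 15. With counts of 0 to 4 per chromosome, these shares are a description. Median log2 fold changes of the autosomes and X against control stayed between -0.44 and 0.40, far from the levels of the 37 genes. Chromosome 6, with 3 of the 37 genes, had medians of -0.39 in dKO, -0.41 in KO-1 CB and -0.42 in KO-1. Outside that range were the Y chromosome (5 genes tested), at 0.96 in dKO, and mitochondrial genes (15 tested), at 1.02 in KO-1 CB and 1.01 in KO-1.

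**Figure D3:**
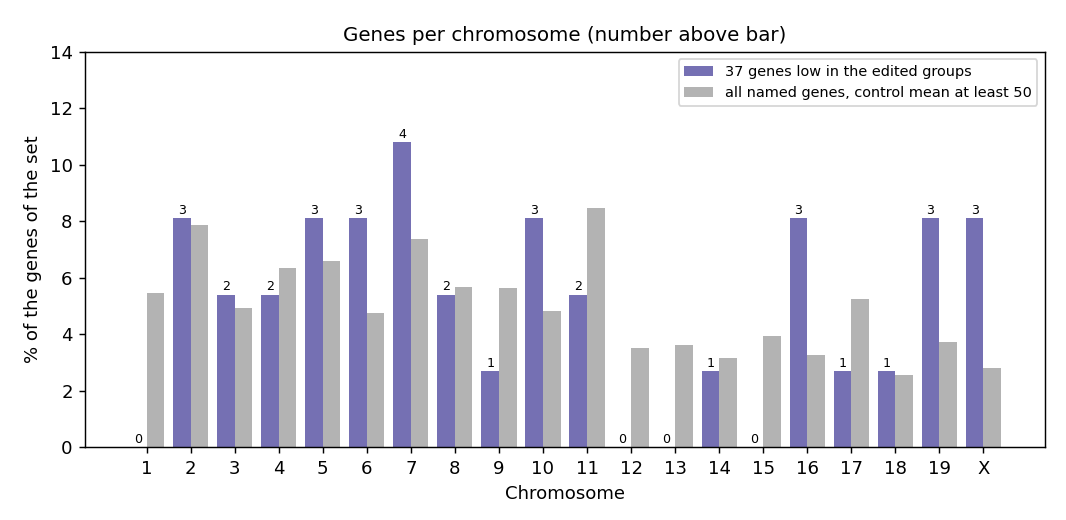
Bars give the percent of the 37 genes (left of each pair, number above) and of all 11459 named genes with a control mean of at least 50 (right) that lie on each chromosome. Chromosome 7 holds 4 of the genes, the X chromosome and 6 others hold 3 each, and chromosomes 1, 12, 13 and 15 hold none.

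No gene directly beside one of the 37 on the chromosome met the same threshold in all edited groups. No gene of the list had another as its nearest tested neighbour. The 74 nearest tested genes, 1 on either side of each, lay at a median distance of 129 kb. Of the 74, 0 were at or under 25% of control in all 3 edited groups. Of all 11459 named genes with a control mean of at least 50, 37 met the rule and 5 more were left out by name. The 0 among the neighbours is thus near the share of all genes. At or under 25% in a single edited group were 4 of the 74 in dKO, 3 in KO-1 CB and 0 in KO-1. Within 2-fold of control were 64 of the 74 in dKO, 64 in KO-1 CB and 68 in KO-1. Over all genes tested, differences of at least 2-fold were called for 12.5%, 10.5% and 12.1%, a measure that also asks for an adjusted p under 0.05. Lower than control were 30, 33 and 28 of the 74 in dKO, KO-1 CB and KO-1, or 40.5%, 44.6% and 37.8%, beside 35.1%, 32% and 35.4% of all genes tested. The neighbour with the lowest value was Arxes2, 144 kb from Bex4, which had 0 normalised counts in dKO, but 29.0 in KO-1 CB and 35.0 in KO-1, against 31.7 in control. Nexn, an actin-binding protein gene 7.11 kb from Miga1, came nearest to the threshold together with Prss27, 37.5 kb from Prss22, and both were named after their values were seen. Nexn averaged 11.97 in dKO, 21.4 in KO-1 CB and 37.1 in KO-1, against 96.5 in control. Prss27, a serine protease gene, averaged 7.58 in dKO, 6.20 in KO-1 CB and 8.27 in KO-1, against 26.9 in control. Pgm5, which overlaps Tmem252 in position, was low in dKO alone, with 24.9 in dKO, 626 in KO-1 CB and 511 in KO-1, against 641 in control. Beside Zfp518b, Hs3st1 averaged 719.6 in dKO, 1449 in KO-1 CB and 577 in KO-1, against 1945 in control.

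**Figure D4:**
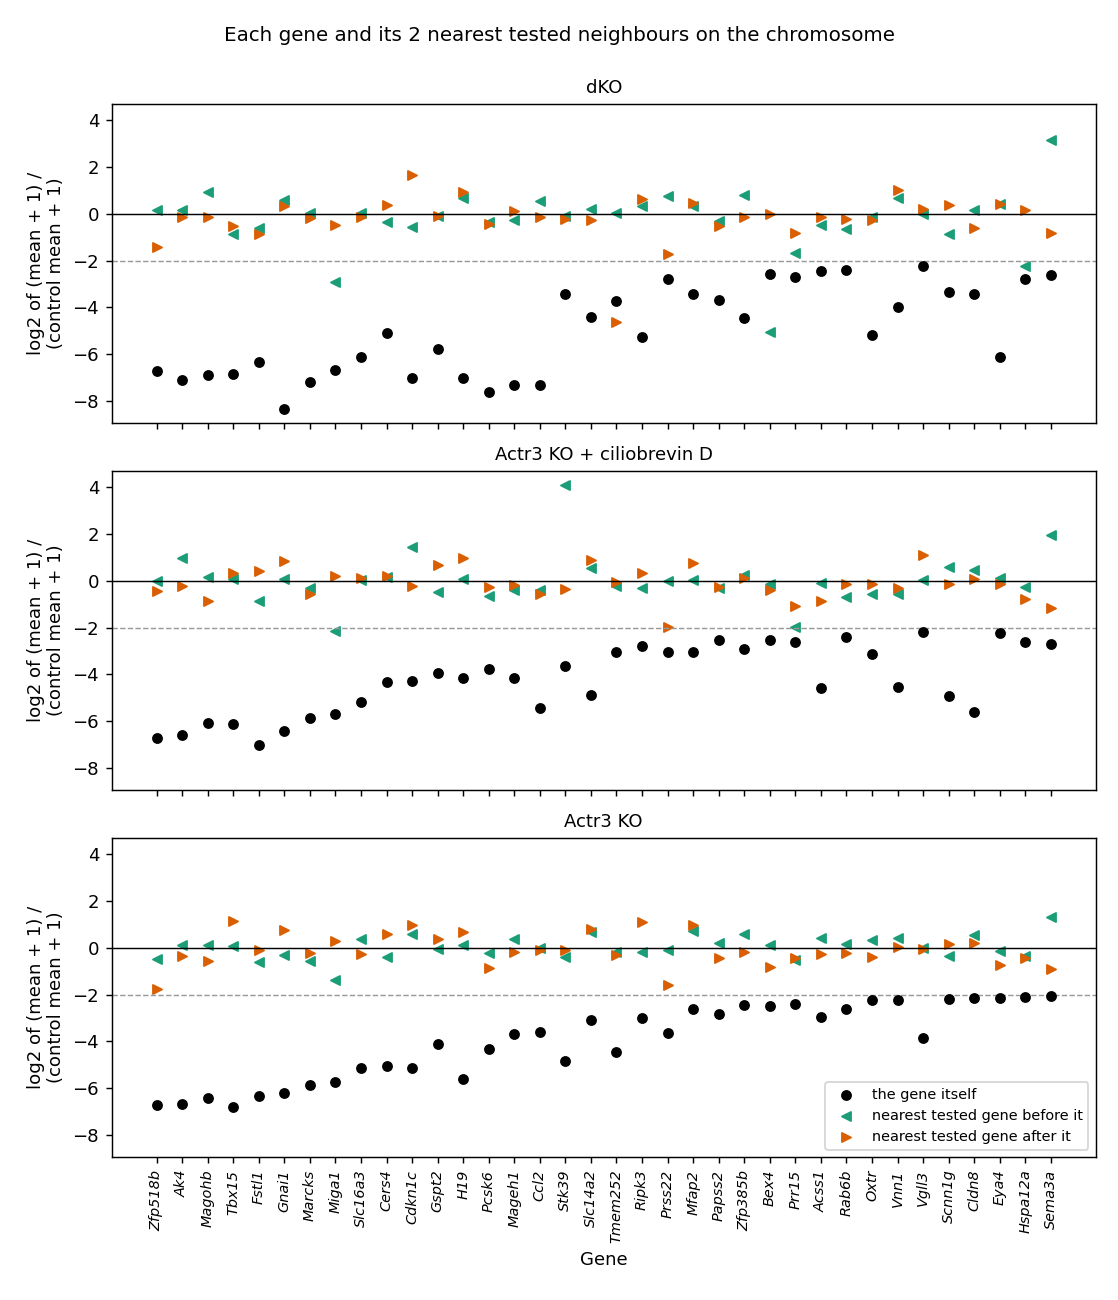
The vertical axis is the log2 ratio of the group mean to the control mean, each plus 1, in dKO (top), KO-1 CB (middle) and KO-1 (bottom); black circles are 36 of the 37 genes and coloured triangles their nearest tested neighbours before and after them on the chromosome, with a dashed line at -2. Of the 72 neighbours drawn, 4 in dKO, 1 in KO-1 CB and 0 in KO-1 lie on or under the dashed line, and 62, 63 and 66 are within 2-fold of control.

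Pairs of listed genes came within 1 Mb of each other in 2 places of the GRCm38 genome. On chromosome 7, H19 (chr7:142575530-142578146) and Cdkn1c (chr7:143458339-143461059) lay 880 kb apart with 5 tested genes between them. None of the 5 was low in all edited groups. Cd81, a tetraspanin, averaged 5429.9 in dKO, 5626 in KO-1 CB and 6209 in KO-1, against 7326 in control normalised counts. Kcnq1ot1, the non-coding RNA of the paternal copy that represses neighbours including Cdkn1c, averaged 312 in dKO, 1276 in KO-1 CB and 691 in KO-1, against 464 in control. Kcnq1, a potassium channel gene of the same domain, averaged 50.2 in dKO, 54.01 in KO-1 CB and 78.04 in KO-1, against 29.9 in control, so it was higher in each edited group. Beyond Cdkn1c, the imprinted Phlda2 averaged 181 ± 20.01 in dKO, 226 ± 20.3 in KO-1 CB and 143 ± 18.4 in KO-1, against 91.3 ± 4.75 in control and was likewise higher in each edited group. The imprinted genes of this stretch therefore moved in different directions.

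On chromosome 10, Eya4 (chr10:23102962-23350838) and Vnn1 (chr10:23894688-23905344) lay 544 kb apart with 4 tested genes between them, of which 0 were low in all edited groups. Rps12, a ribosomal protein gene, averaged 10009 in dKO, 6705 in KO-1 CB and 4419.7 in KO-1, against 7375 in control normalised counts. Slc18b1, a polyamine transporter gene, averaged 772 in dKO, 322 in KO-1 CB and 643 in KO-1, against 479.7 in control. The remaining 2 were the small nucleolar RNA genes Snora33 and Snord100, which lie within Rps12. The closest pair after these, Sema3a and Gnai1 on chromosome 5, was 4662 kb apart, with the tested genes Sema3e and Sema3c between them. Sema3e averaged 6210 in dKO, 4936 in KO-1 CB and 5783 in KO-1, against 10984 in control, so it was lower in each edited group. Sema3c averaged 18457 in dKO, 12769 in KO-1 CB and 9894 in KO-1, against 12120 in control.

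The deepest loss lay at chr5:38668484-38684984 (Zfp518b), followed by chr4:101416478-101467771 (Ak4), chr6:131284389-131293244 (Magohb), chr3:99240348-99354260 (Tbx15), chr16:37777055-37836516 (Fstl1) and chr5:18265135-18360413 (Gnai1). The values were counted over exons of genes of very different form: Mageh1 and Cldn8 have a single exon block in GENCODE, whereas Sema3a and Eya4 have 26 each over spans of 479 and 248 kb. Besides Cdkn1c and Cers4, exons of Acss1, Hspa12a, Prr15 and H19 overlap genes on the other strand, over 113, 166, 278 and at most 71 bases. Overlaps on the same strand, which no strand setting separates, were 520 bases of Magohb with the pseudogene Gm44958, 156 bases of Pcsk6 with Gm45213 and 84 bases of H19 with Mir675.

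RefSeq promoter windows, from 250 bases before to 50 after a listed start, were found for 25 of the 37 genes. The first listed window of each gene was used, and its start is not always the outer end of the gene. Several windows lie inside the gene, among them those of Sema3a (chr5:13396534-13396833), Zfp385b (chr2:77519617-77519916), Ak4 and Eya4. Their CG content describes an inner start. The median GC content of the 25 was 64.3%, against 61.7% for 9156 genes with a control mean of at least 50. The ratio of observed to expected CG dinucleotides had a median of 0.684, against 0.789. With a ratio of at least 0.6 and a GC content of at least 50%, 17 windows (68.0%) were rich in CG, against 73.4% of all. Searched on both strands, GGGCGG was found in 20 windows (80.0%) against 67.6% of all, CCAAT in 6 (24.0%) against 39.2%, TATAAA in 0 against 6.15% and TGANTCA in 0 against 4.59%. These motifs may overlap one another, and their absence says only that the letters are not in the window. The genes thus included CG-rich windows as well as CG-poor ones.

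The range is shown by 6 windows of GRCm38.p6, printed 5′ to 3′ with CG dinucleotides in capitals because CG content ranged widely among the 25. The windows of Ak4 and Eya4 lie inside the gene and not at its outer end. Zfp518b (chr5:38684777-38685076, minus strand) had no read in any edited library and 21 CGs in its window, Ak4 (chr4:101419039-101419338, plus strand) had 29, and Gnai1 (chr5:18360364-18360663, minus strand), the richest of the 25, had 53. Mageh1 (chrX:153037514-153037813, minus strand) and Eya4 (chr10:23349894-23350193, minus strand), both much lower in dKO than in KO-1, had 18 and 36. Tmem252 (chr19:24673758-24674057, plus strand), a gene that was higher in KO-1 CB than in KO-1, had 2.
Zfp518b: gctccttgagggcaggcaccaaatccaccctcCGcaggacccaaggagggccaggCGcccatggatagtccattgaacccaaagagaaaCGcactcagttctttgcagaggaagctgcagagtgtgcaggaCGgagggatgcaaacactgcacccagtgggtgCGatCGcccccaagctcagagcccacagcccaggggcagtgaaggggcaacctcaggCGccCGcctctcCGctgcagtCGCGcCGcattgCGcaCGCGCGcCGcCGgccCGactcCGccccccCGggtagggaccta
Ak4: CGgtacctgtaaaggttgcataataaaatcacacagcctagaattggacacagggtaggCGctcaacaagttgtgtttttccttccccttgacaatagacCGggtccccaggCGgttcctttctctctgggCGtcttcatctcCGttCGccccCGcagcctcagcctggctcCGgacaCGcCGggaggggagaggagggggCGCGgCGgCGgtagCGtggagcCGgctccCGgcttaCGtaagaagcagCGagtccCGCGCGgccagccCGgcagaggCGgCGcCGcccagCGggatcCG
Gnai1: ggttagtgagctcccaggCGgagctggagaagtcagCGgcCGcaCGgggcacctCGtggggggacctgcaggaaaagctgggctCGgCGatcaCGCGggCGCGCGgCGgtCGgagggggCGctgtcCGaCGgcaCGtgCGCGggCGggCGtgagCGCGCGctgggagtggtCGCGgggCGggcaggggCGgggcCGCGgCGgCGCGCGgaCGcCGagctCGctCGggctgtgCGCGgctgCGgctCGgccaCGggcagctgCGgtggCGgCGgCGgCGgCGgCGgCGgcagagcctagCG
Mageh1: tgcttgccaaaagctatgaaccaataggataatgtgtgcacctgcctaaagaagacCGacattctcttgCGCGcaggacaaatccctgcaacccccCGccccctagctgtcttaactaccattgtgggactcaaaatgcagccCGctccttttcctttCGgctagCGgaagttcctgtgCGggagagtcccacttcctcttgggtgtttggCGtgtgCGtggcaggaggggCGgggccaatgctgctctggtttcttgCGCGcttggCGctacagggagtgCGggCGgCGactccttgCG
Eya4: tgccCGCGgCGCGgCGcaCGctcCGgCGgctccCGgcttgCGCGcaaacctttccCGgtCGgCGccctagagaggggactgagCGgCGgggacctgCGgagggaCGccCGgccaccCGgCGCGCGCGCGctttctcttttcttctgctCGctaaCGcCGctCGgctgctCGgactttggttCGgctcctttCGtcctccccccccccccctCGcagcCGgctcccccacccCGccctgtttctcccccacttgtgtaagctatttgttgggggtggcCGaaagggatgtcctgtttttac
Tmem252: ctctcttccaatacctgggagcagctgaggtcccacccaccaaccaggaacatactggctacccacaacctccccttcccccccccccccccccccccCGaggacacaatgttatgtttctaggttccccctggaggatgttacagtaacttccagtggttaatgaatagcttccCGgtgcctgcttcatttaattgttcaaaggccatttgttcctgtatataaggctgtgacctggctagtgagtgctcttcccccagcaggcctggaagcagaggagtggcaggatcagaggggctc

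Imprinted genes and developmental factors outside the list were counted because H19, Cdkn1c and Tbx15 belong to these kinds. Beside every count of a gene list against control stand the same shares of all genes tested, 35.1%, 32% and 35.4% lower and 32%, 33% and 34.4% higher in dKO, KO-1 CB and KO-1. Of 18 other imprinted genes tested, 13, 2 and 6 were lower and 5, 10 and 9 higher than control in dKO, KO-1 CB and KO-1. Peg10 came nearest to the list, with means of 288 in dKO, 1176 in KO-1 CB and 358 in KO-1, against 3900.5 in control. Plagl1 was higher in each edited group, at 1056 in dKO, 1236 in KO-1 CB and 1114 in KO-1, against 604 in control. Of 94 other genes of developmental transcription factor families, 44, 38 and 38 were lower and 28, 38 and 36 higher in dKO, KO-1 CB and KO-1. Their median log2 fold changes were -0.12, -0.09 and -0.08, beside -0.01, 0.01 and 0.00 over all genes tested.

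Genes for the enzymes and readers of repressive marks were counted against the same shares of all genes, about 1 in 3 in each direction. Of 11 genes of DNA methylation, 1, 7 and 7 were higher and 6, 2 and 4 lower than control in dKO, KO-1 CB and KO-1. Dnmt3a, which places new methyl groups on DNA, averaged 2948 in dKO, 5907 in KO-1 CB and 5005 in KO-1, against 3433 in control. Of 20 Polycomb genes, 4, 6 and 6 were higher and 9, 4 and 9 lower, and the methyltransferase gene Ezh2 averaged 2710.4 in dKO, 3752 in KO-1 CB and 2336 in KO-1, against 4868 in control. Of 14 genes of H3K9 methylation, 1, 3 and 6 were higher and 7, 3 and 5 lower. No mark was measured in this study, and the part of these genes in the losses was not tested.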

How the data were processed

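Poly(A) RNA of 12 mIMCD3 libraries was measured, and groups were taken from the sample titles. The submitters' processing notes name DESeq2 (version 2.11.40.7), featureCounts (version 2.0.1), HISAT2 (version 2.2.1) and fastp (version 0.23.2), and the builds GRCm38 and mm10, without order or options. The deposited values are a signal in which each featureCounts count was divided by a library factor: every value was a whole multiple of 1 step (tolerance 0.01 reads), so reads were recovered by division. They are not corrected for gene length. The RefSeq table of GRCm38.p6 gave symbols to 25275 of 27179 gene IDs, and gave their coordinates; exons came from GENCODE M21.

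The 13939 genes that reached 10 in 3 or more libraries were fitted as log2(value + 1) with limma 3.58.1 (trend, 12 libraries in 1 fit, two-sided; R 4.3.3), with calls at an adjusted p under 0.05 (Benjamini-Hochberg). Fold changes on that scale understate low genes. A group with 0 reads was set to a floor of 3 reads in all, which makes its fold a bound, and a ratio to 1, 2 or 3 reads carries an exact conditional 95% interval. DESeq2 1.42.0 and edgeR 4.0.16, both on recovered reads, were among the alternatives. The steps were tested on simulated data in which few genes differed, and none of these had a very low mean. Most genes tested were called here and many members were very low, so that run does not cover these conditions.

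The members and gene lists were chosen with earlier results of these data known, and functional groups were assigned once the members were known. The values of 1 member are not reported here, though counts over the 37 genes include it. Values per library are given for the 12 deepest losses, the 5 highest and 5 lowest called genes per comparison, genes beside the threshold and neighbouring members. They are also given for Prr15, the most variable member in the control. Every pair of replicates differed beyond counting noise (chi-square over its degrees of freedom: 4.48 to 17.0). The labels do not name separate cultures, and p-values then measure the spread between these libraries alone.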

Additional observations from a re-analysis of the deposited data

How the results depend on the processing

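Among the alternatives run, no result changed direction past the threshold, and 15 of the 25 calls in dKO over KO-1 and 9 of the 15 in KO-1 CB over KO-1 held in every setting in which the gene was tested (24 to 26 of 26; genes under a stricter filter were not tested there). The number of genes meeting the rule was 59 at 1/3 of control, 19 at 1/8, 13 at 1/16 and 71 with a control minimum of 20; leaving out 1 library gave 36 to 40. With genes of a mean of at least 50, the members called were 16 in dKO over KO-1 and 9 in KO-1 CB over KO-1, because fewer members were tested. With the filter set on edited libraries alone, chosen after seeing the data, 16 members were called in dKO over KO-1 and 12 in KO-1 CB over KO-1. Leaving out 1 library gave 22 to 27 members called in dKO over KO-1 and 12 to 16 in KO-1 CB over KO-1, and 8551 to 9400 and 8507 to 9150 genes in all. At least 2-fold changes were called for 1325 and 1302 genes. Equal replicate numbers did not pair the libraries (correlations of deviations -0.0415 to 0.0640). In a fit of the edited libraries with the number as a block, 20 members and 9026 genes were called in dKO over KO-1 and 14 and 9008 in KO-1 CB over KO-1, beside 21 and 13 members without the block. Members with few reads in the edited groups limit every comparison among those groups.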
